A study of Mus musculus with 8 samples.

Results

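Signal peptidase and signal peptide peptidase are the proteases that remove and then clear the leader sequences of proteins entering the endoplasmic reticulum (ER). The genes described here are the catalytic signal peptidase subunits Sec11a and Sec11c, the accessory subunits Spcs1, Spcs2 and Spcs3, and Hm13, which encodes signal peptide peptidase and appears as H13 in the array annotation. They were taken as the probe sets whose only annotated gene was one of these 6, which gave 14 of the 22626 probe sets tested and 6 of the 12393 genes that had a probe set of their own. The study compared 8 samples of cultured mouse adipocytes, each on 1 Affymetrix array: 4 infected with adenovirus carrying the mouse spliced form of Xbp1 (sXBP1) and 4 infected with adenovirus carrying green fluorescent protein (GFP) alone. Both groups were differentiated preadipocytes of a Swiss-background line that the labels call F442A in one field and 3T3L1 in another. They were infected at day 6 to 8 of differentiation and harvested 4 to 6 days later, with no finer times given for either group. The labels do not say whether the 4 samples of a group came from separate cultures, and the p-values below describe scatter among samples that could be purely technical.

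Proteins bound for secretion or for membranes carry an N-terminal signal peptide that the signal peptidase complex cuts off as the chain enters the ER. In human cells the complex exists in a pair of forms, one built on SEC11A and one on SEC11C, each joined to the same accessory subunits. The cleaved peptides left in the membrane are cut again by signal peptide peptidase, an intramembrane aspartyl protease related to the presenilins, which in human cells also cleaves the unspliced XBP1 protein and the haem-degrading enzyme HMOX1. Spliced XBP1 is a transcription factor made when the ER sensor IRE1 splices its messenger RNA, and it is known for inducing genes of the secretory pathway. Fat cells secrete large amounts of adiponectin and matrix proteins.

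Arrays of a group correlated at 0.991 to 0.995 within GFP and 0.986 to 0.994 within sXBP1, and at 0.949 to 0.971 between groups, across the brighter probe sets, which are not independent replicates. Median signal per array was 135 to 153.9 in GFP and 117.3 to 139.65 in sXBP1 samples. Between the 3' and 5' ends of Gapdh, where RNA breakdown shows, the ratio of signals was 0.810 to 0.820 in GFP and 0.775 to 0.802 in sXBP1 samples. The Gapdh ratios were separate (p = 0.0286 by a two-sided exact permutation test, the lower limit for groups of 4), and their part in the results was not tested. The same ratio for actin overlapped, at 1.40 to 1.44 in GFP and 1.33 to 1.44 in sXBP1 samples (exact permutation p = 0.143). All 9 adipocyte markers measured were called present on all 4 GFP arrays, and 7 of them were lower in sXBP1 samples, with a median change of -0.54 on the log2 scale, among them Adipoq, adiponectin, which fell by 0.49. Of 5 preadipocyte and fibroblast markers, 4 were lower, with a median of -0.64 and a summed signal of 12913 to 16606 in GFP and 10286 to 11830 in sXBP1 samples. Of 7 macrophage and leukocyte markers, 4 were higher, their summed signal lying at 735.5 to 857.6 in GFP and 2086 to 4193 in sXBP1 samples. Ptprc, which encodes the leukocyte antigen CD45, and Itgam were called present on no array. Of 4 endothelial markers 0 passed in either direction, at summed signals of 36.4 to 76.4 and 45.5 to 64.9. By the threshold given below, 12.9% of all genes were higher and 14.4% lower. The part of these marker shifts in the results below was not tested. Since each sample is a whole culture, fewer cells of a type and less RNA per cell cannot be told apart.

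Every one of the 6 genes was higher in sXBP1 samples, from 1.41-fold for Spcs1 to 2.90-fold for Hm13, and for each of the 6 the lowest sXBP1 array lay above the highest GFP array. Signals are the linear MAS5 values deposited by the authors. Changes are sXBP1 minus GFP on log2(signal + 16) after quantile normalization, given with their standard error from limma and a p-value adjusted over all tested probe sets, with a threshold of 0.05. Each gene is represented by its brightest probe set. By that measure 12.9% of all genes were higher and 14.4% were lower, and 14.1% had sXBP1 arrays that lay wholly above the GFP arrays. The median change of the 6 genes was 0.84, against -0.01 for all genes. Among all 14 probe sets 10 passed the threshold as higher and 0 as lower (limma, with 0 lower at an unadjusted p under 0.05), where 11.5% of all probe sets were higher, 13% (2942 of 22626) lower and 24.5% either. All 8 with a mean signal over 500 passed, while 2 of the 6 dimmer ones did.

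Sec11a encodes one of the catalytic subunits, which carries the serine protease active site of the complex. Its signals were 2054, 2344, 2164 and 2204 on GFP arrays 1 to 4 and 3745, 3626, 4089 and 4325 on sXBP1 arrays 1 to 4. The groups did not overlap, and within each group the arrays lay close together. Sec11a rose by 0.87 ± 0.05 (limma adjusted p = 1.7e-06), a 1.83-fold increase. Its other probe set gave signals of 1.5 to 1.9 on all 8 arrays, was not listed in the authors' deposited comparison table and changed by -0.00 ± 0.10 (adjusted p = 0.985), so it held next to no signal in either group.

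Sec11c encodes the alternative catalytic subunit. Its only probe set gave signals of 811, 877.8, 848 and 858 on GFP arrays 1 to 4 and of 1720.3, 1797, 1823 and 2414 on sXBP1 arrays 1 to 4. The GFP arrays lay close together, and sXBP1 array 4 stood above the other sXBP1 arrays. Sec11c rose by 1.23 ± 0.07 (limma adjusted p = 1.6e-06), a 2.34-fold increase. It ranked 100 of 12393 genes by the size of its rise, and Sec11a ranked 266. Without sXBP1 array 4, Sec11c rose by 1.16.

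**Figure D1:**
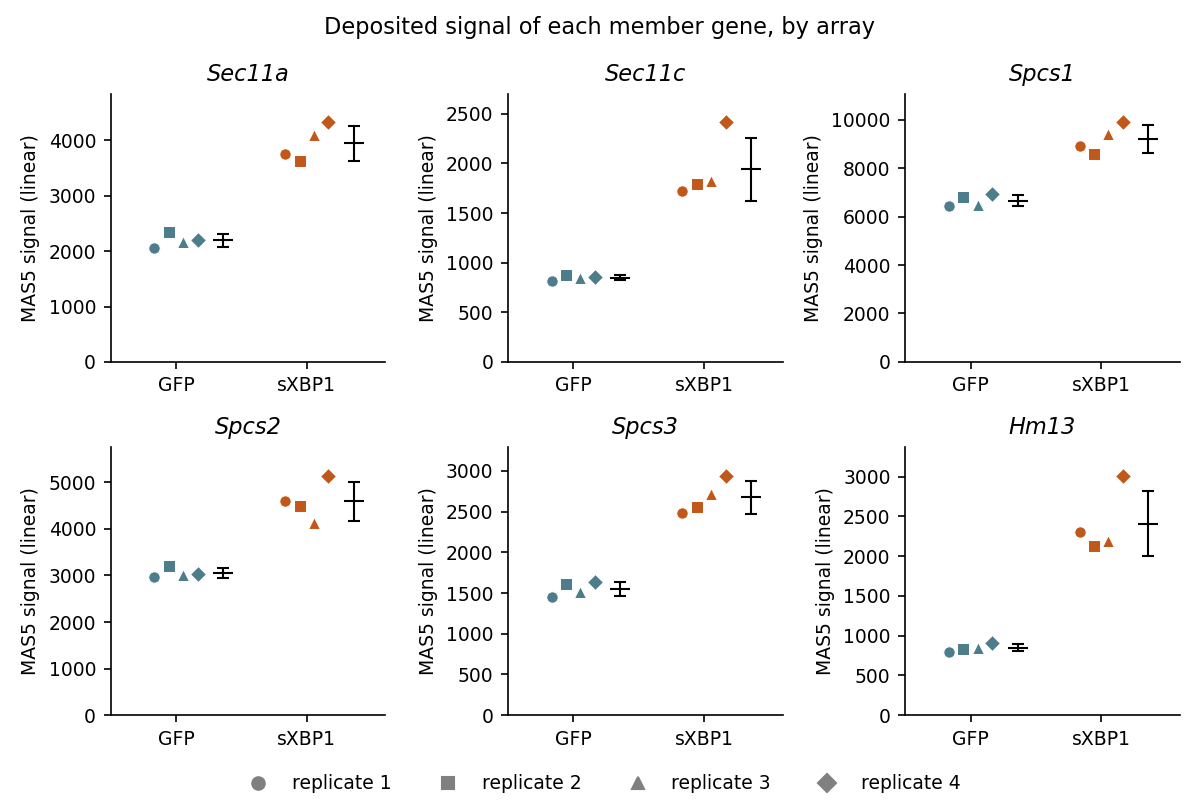
Deposited MAS5 signal (linear, axes from 0) of the brightest probe set of each of the 6 genes on the 4 GFP and 4 sXBP1 arrays, with marker shape giving the replicate number and bars the mean ± SD (n = 4). In all 6 panels every sXBP1 array lies above every GFP array, and sXBP1 array 4 is the highest of its group. That array also had the highest median signal of its group, 139.65. After normalization it was the highest of its group for Sec11c and Hm13 but not for the other genes.

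The paralogs did not rise to the same extent. Within each array the log2 value of Sec11c was set against that of Sec11a, so that constant differences between the probe sets cancel between groups. Relative to the GFP mean, this difference was 0.26, 0.38, 0.24 and 0.53 on sXBP1 arrays 1 to 4 and between -0.07 and 0.05 on the GFP arrays. All 4 sXBP1 arrays lay above all 4 GFP arrays. Sec11c therefore rose by 0.35 ± 0.07 more than Sec11a (p = 0.0286 by a two-sided exact permutation test, the lower limit for groups of 4). Without sXBP1 array 4 the difference was 0.29. With the mean of all probe sets of a gene the difference was 0.79. The change of Sec11a was then 0.43, because its second probe set held next to no signal. A response that depends on brightness would not cancel within arrays. The mean GFP signal was 849 for Sec11c and 2191 for Sec11a, and the part of brightness was not tested.

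The same comparison was made between Sec11c and each of the other members, 5 differences in all, and each gave an exact permutation p = 0.0286, also after adjustment over the 5. That p is the lower limit for groups of 4, and the adjustment leaves equal p-values as they are. All 5 comparisons share the Sec11c values and are not independent. Sec11c rose by 0.73 ± 0.07 more than Spcs1, by 0.62 ± 0.08 more than Spcs2 and by 0.42 ± 0.07 more than Spcs3. Against Hm13 it rose less, by -0.31 ± 0.05. All 4 sXBP1 arrays lay on the same side of the GFP arrays in each of the 5 comparisons. The mean GFP signal was 6660 for Spcs1, 3059 for Spcs2, 1553 for Spcs3 and 848 for Hm13, so the dimmer of these rose more. Sec11a, at 2191, lay outside that order, as it rose by 0.87 and the dimmer Spcs3 by 0.81. Sec11c and Hm13, at 849 and 848, were alike in GFP signal. The part of brightness in this order was not tested.

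**Figure D2:**
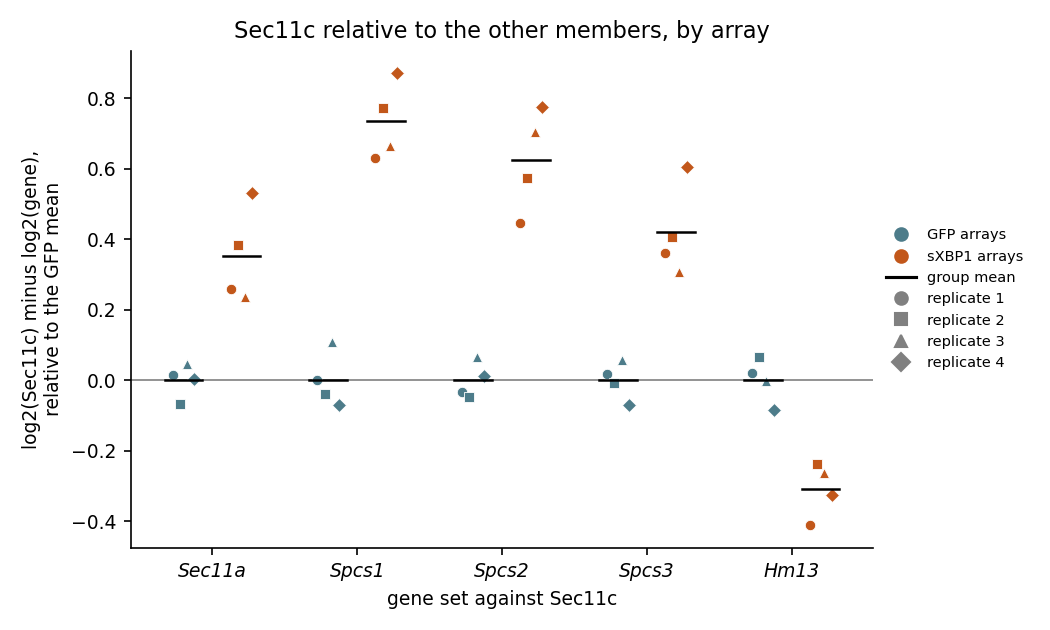
Normalized log2 value of Sec11c minus that of each other gene on each array, relative to the mean of the GFP arrays (vertical axis, log2 units), for 4 GFP and 4 sXBP1 arrays with marker shape giving the replicate and black bars the group means. The sXBP1 arrays lie above the GFP arrays for Sec11a, Spcs1, Spcs2 and Spcs3, at 0.35 for Sec11a and 0.73 for Spcs1, and below them for Hm13, at -0.31.

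Differences of this size also occurred between probe sets of a single gene. Spcs2 had 2 bright probe sets, of which the brighter rose by 0.60 ± 0.05 and the other by 0.90 ± 0.06 (limma adjusted p = 1.2e-05 and 3.1e-06). Their changes differed by 0.30 ± 0.06 (two-sided exact permutation p = 0.0286), a comparison chosen after their values were seen. With the other in place of the brighter one, Sec11c rose by 0.33 ± 0.07 more than Spcs2. Sec11c itself had 1 probe set, so no second measurement of its change was available on these arrays.

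Spcs1 encodes the smallest accessory subunit. Its brightest probe set gave signals of 6424, 6822, 6479 and 6914 on GFP arrays 1 to 4 and of 8932, 8574, 9399 and 9891 on sXBP1 arrays 1 to 4. The groups were separate although the step was the smallest of the 6 genes. Spcs1 rose by 0.49 ± 0.05 (limma adjusted p = 4.3e-05), and its second bright probe set by 0.58 ± 0.05 (adjusted p = 3.4e-05). A dim one gave overlapping signals of 29.8 to 46.7 in GFP and 40.9 to 51.4 in sXBP1 samples and did not pass (0.26 ± 0.14, adjusted p = 0.231).

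Spcs2 encodes another accessory subunit. Its brightest probe set gave 2968, 3214, 3015 and 3040.1 on GFP arrays 1 to 4 and 4607, 4485, 4132 and 5147 on sXBP1 arrays 1 to 4. No sXBP1 array overlapped the GFP range, and the fold was 1.52. Spcs3 encodes the accessory subunit that, in yeast, is required for signal peptidase activity. Its single-gene probe set gave 1449, 1613, 1511 and 1637 on GFP arrays 1 to 4 and 2488, 2553, 2715 and 2943 on sXBP1 arrays 1 to 4. Spcs3 rose by 0.81 ± 0.05 (limma adjusted p = 2.3e-06), again with no overlap between groups.

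In the order of change, Sec11a at 0.87 and Spcs3 at 0.81 differed by 0.07 ± 0.03, and their per-array differences overlapped between groups, from -0.07 to 0.06 on GFP and from 0.02 to 0.10 on sXBP1 arrays. Spcs2 and Spcs1 differed by 0.11 ± 0.06 and also overlapped. Spcs3 rose by 0.20 ± 0.07 more than the brightest Spcs2 probe set, and the groups nearly touched, at 0.08 to 0.40 on sXBP1 arrays and -0.05 to 0.08 on GFP arrays. These 3 neighbours were picked from the observed order and carry no test.

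Hm13, which encodes signal peptide peptidase, had the largest change of the 6. Its brightest probe set gave signals of 799, 837, 846 and 909 on GFP arrays 1 to 4 and of 2309, 2130.3, 2185 and 3015 on sXBP1 arrays 1 to 4. All sXBP1 arrays exceeded the highest GFP array more than 2-fold. Hm13 rose by 1.53 ± 0.07 (limma adjusted p = 1.1e-06), and 61 of 12393 genes, 0.492%, rose at least as much.

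The other 4 Hm13 probe sets were dim and did not share one outcome. One lay at 25.3 to 43.4 in GFP and 44.1 to 57.7 in sXBP1 samples and rose by 0.50 ± 0.15 (limma adjusted p = 0.0381). Another was called present on no GFP array and on 1 sXBP1 array, at overlapping signals of 9.2 to 39.4 in GFP and 38.5 to 56.7 in sXBP1 samples. It passed as higher (limma adjusted p = 0.0246) and was 1.78-fold higher when the GFP arrays were set at a floor. The sXBP1 arrays were mostly without a present call too, so this fold is not a lower bound. For this floor each GFP array was given its own measured value or a substitute, if higher. The substitute was the dimmest level on that array of any probe set detected on all 4 GFP arrays. The remaining ones, called present on all 8 arrays at signals of 31.0 to 105, changed by 0.09 ± 0.11 and -0.03 ± 0.18 (adjusted p = 0.624 and 0.940). Averaged over all 5 probe sets Hm13 rose by 0.60 (adjusted p = 0.00184), and the order of Hm13 and Sec11c was then turned, with Sec11c 0.63 ahead.

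**Figure D3:**
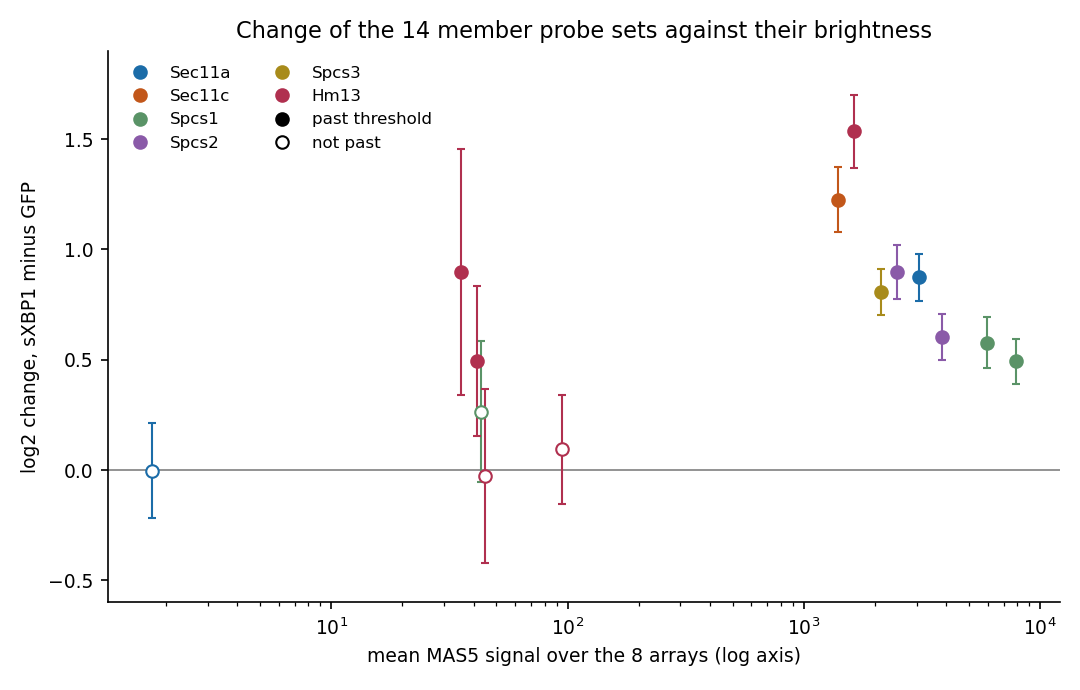
Log2 change (sXBP1 minus GFP, with 95% confidence interval from limma) of the 14 probe sets against their mean MAS5 signal over 8 arrays on a log axis, coloured by gene, with filled points past the threshold. The 8 probe sets above a signal of 500 are all filled, while 2 of the 6 dimmer ones are filled, both of Hm13.

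The change was much the same on each sXBP1 array. The median of the 6 genes on sXBP1 arrays 1 to 4 exceeded the GFP average by 0.81, 0.77, 0.94 and 0.84 (log2 scale). The median of the 7 macrophage and leukocyte markers lay at 0.41, 0.25, 0.79 and 0.63 on the same arrays, and that of the 9 adipocyte markers at -0.34, -0.35, -0.54 and -0.90. That of the 5 preadipocyte and fibroblast markers lay at -0.56, -0.59, -0.49 and -0.73. The medians of the 6 genes and of the macrophage and leukocyte markers ranked the 4 arrays alike, while the adipocyte and preadipocyte medians did not. The 6 genes did not all share the order of their median. Sec11c and Hm13 were highest on sXBP1 array 4, at 1.41 and 1.74, and Spcs2 on sXBP1 array 1, at 0.67. Whether the medians are related was not tested. In the authors' deposited table the folds of the brightest probe sets, taken from linear group means, ran from 1.38 for Spcs1 to 2.84 for Hm13, with 1.80 for Sec11a and 2.28 for Sec11c.

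Promoter windows from 250 bases before to 50 bases after the annotated start were taken from RefSeq (GRCm38.p6) for Sec11a, Spcs1, Spcs2 and Hm13. They were searched on both strands for letters associated with the response to unfolded proteins: CCACG and CCAAT, the ends of the ER stress response element, and ACGT, the core bound by XBP1 and its relatives. The first and last of these can overlap by sharing letters, while CCAAT overlaps neither. CCACG was present in all 4 windows, once in Sec11a, Spcs2 and Hm13 and 4 times in Spcs1, and in 32.8% of 32851 windows of the same length. The 4 windows held 58% to 74.7% G and C, against a median of 52.7% over all windows. The joined form CCACGT was found in Spcs1, at -60 to -55 from the start, and in Hm13, on the opposite strand at 34 to 39, and in 8.31% of all windows. ACGT was found in 2 of the 4 windows, once in Spcs1 and 2 times in Hm13, and in 30.9% of all windows. CCAAT was found in Spcs2 alone of the 4 and in 37.4% of all windows. The full ER stress response element, the ERSE-II element and TGACGTGG were in none of the 4 windows, and in 0.119%, 0.0365% and 0.676% of all windows. Matches are descriptions of letters, not of binding. The windows with the joined form and that of Sec11a are shown 5′ to 3′, with CCACG, ACGT and their reverse complements in capitals.
Hm13, chr2:152669211-152669510, plus strand: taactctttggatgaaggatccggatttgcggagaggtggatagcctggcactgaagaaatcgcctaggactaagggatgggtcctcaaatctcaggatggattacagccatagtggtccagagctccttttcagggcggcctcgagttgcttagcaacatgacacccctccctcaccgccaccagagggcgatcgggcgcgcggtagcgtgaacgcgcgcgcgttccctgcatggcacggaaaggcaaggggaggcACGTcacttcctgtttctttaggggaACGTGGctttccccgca
Spcs1, chr14:31001617-31001916, minus strand: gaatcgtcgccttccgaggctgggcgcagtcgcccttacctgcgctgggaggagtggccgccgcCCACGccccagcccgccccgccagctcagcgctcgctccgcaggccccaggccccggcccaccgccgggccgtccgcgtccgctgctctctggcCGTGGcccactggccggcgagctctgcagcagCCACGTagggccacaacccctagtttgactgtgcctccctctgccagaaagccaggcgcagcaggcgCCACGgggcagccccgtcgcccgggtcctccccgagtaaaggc
Sec11a, chr7:80947501-80947800, minus strand: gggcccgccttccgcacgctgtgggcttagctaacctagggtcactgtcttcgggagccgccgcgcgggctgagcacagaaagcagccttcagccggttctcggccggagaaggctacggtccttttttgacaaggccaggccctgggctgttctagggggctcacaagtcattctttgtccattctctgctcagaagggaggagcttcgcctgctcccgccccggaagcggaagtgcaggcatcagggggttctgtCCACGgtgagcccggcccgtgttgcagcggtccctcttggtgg

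Genes that act beside the proteases at the ER membrane were mostly higher as well, where 12.9% of all genes were higher and 14.4% lower. Of 17 measured genes of the signal recognition particle, its receptor, the Sec61 channel and the associated TRAP and TRAM proteins, 14 rose and 0 fell (limma, with 1 lower at an unadjusted p under 0.05), with a median change of 0.68 against -0.01 for all genes. Srprb, the membrane-anchored subunit of the signal recognition particle receptor, rose by 1.18 ± 0.06, Sec63, which recruits BiP to the channel, by 1.05 ± 0.06 and Ssr2, a TRAP subunit, by 0.82 ± 0.04 (adjusted p = 1.5e-06, 1.8e-06 and 1.0e-06). The change of Sec11c, 1.23 ± 0.07, was close to the highest of these 17, that of Srprb, and the difference between them was not tested. That of Spcs1, 0.49, was below the median of the 17. Sec62 and Sec61a2, at 0.04 ± 0.05 and -0.21 ± 0.07, did not pass (adjusted p = 0.617 and 0.0595).

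None of the measured relatives of signal peptide peptidase passed as higher. Among all genes 12.9% passed as higher and 14.4% as lower. Of 4 genes of the signal peptide peptidase-like and presenilin family, 0 rose and 2 fell (limma, with 0 higher at an unadjusted p under 0.05), and the median change was -0.19. Sppl2b changed by -0.46 ± 0.13 and Psen2, a presenilin, by -0.37 ± 0.10, the latter on 1 of 2 probe sets (adjusted p = 0.0228 and 0.0238). Sppl2b was not listed in the authors' deposited table, its groups overlapped, and 1 of the 2 calls was lost without any one of GFP arrays 1 to 4, sXBP1 array 2 or sXBP1 array 3, and both without sXBP1 array 4. Sppl2a, an endosomal and lysosomal family member, changed by 0.17 ± 0.09 (adjusted p = 0.224). Of 4 measured partners and reported substrates of the enzyme, 3 rose and 0 fell, with 0 lower at an unadjusted p under 0.05. Stx18, an ER syntaxin, rose by 0.66 ± 0.07 and Hmox1 by 0.31 ± 0.07 (limma adjusted p = 6.2e-05 and 0.0100). Derl1, a component of ER-associated degradation, rose by 0.27 ± 0.05 (limma adjusted p = 0.00193). All 4 Derl1 probe sets passed as higher, and a dimmer one rose by 0.64 ± 0.06 (limma adjusted p = 3.5e-05). Xbp1 itself changed by 0.07 ± 0.04 (adjusted p = 0.271). It is not known here if these probes can see RNA from the virus, and the Xbp1 level therefore cannot serve as a check of the infection.

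Genes of the enzymes and complexes that process other leader or anchor sequences, or later precursor proteins, included none that passed as higher. Of 13 measured genes of the mitochondrial leader peptidases, the glycosylphosphatidylinositol transamidase and the proprotein convertases, 0 rose and 5 fell (limma, with 0 higher at an unadjusted p under 0.05), with a median of -0.16. Among all genes 12.9% rose and 14.4% fell. After median centring 2 of the 13 genes fell. Pmpca, a subunit of the mitochondrial processing peptidase, fell by 0.31 ± 0.06, Mbtps1, the Golgi site-1 protease, fell by 0.32 ± 0.06 on 1 of 3 probe sets and Immp1l, a mitochondrial inner membrane peptidase subunit, fell by 0.20 ± 0.05 (adjusted p = 0.00236, 0.00382 and 0.0111).

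Transcripts of secreted adipocyte and matrix proteins, which are clients of signal peptidase, were divided. Of 28 measured, 5 rose and 11 fell, against 12.9% and 14.4% of all genes, with a median of -0.08. The split was 4 and 9 with values as deposited and 6 and 4 after median centring, so its balance depends on the scaling. Lcn2, lipocalin 2, rose by 0.93 ± 0.08, Hp, haptoglobin, by 0.33 ± 0.05 and Angptl4, an inhibitor of lipoprotein lipase, by 0.30 ± 0.04, the last on 1 of 2 probe sets (limma adjusted p = 3.2e-05, 7.1e-04 and 2.3e-04). Adipoq fell by 0.49 ± 0.08 (adjusted p = 0.00125).

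**Figure D4:**
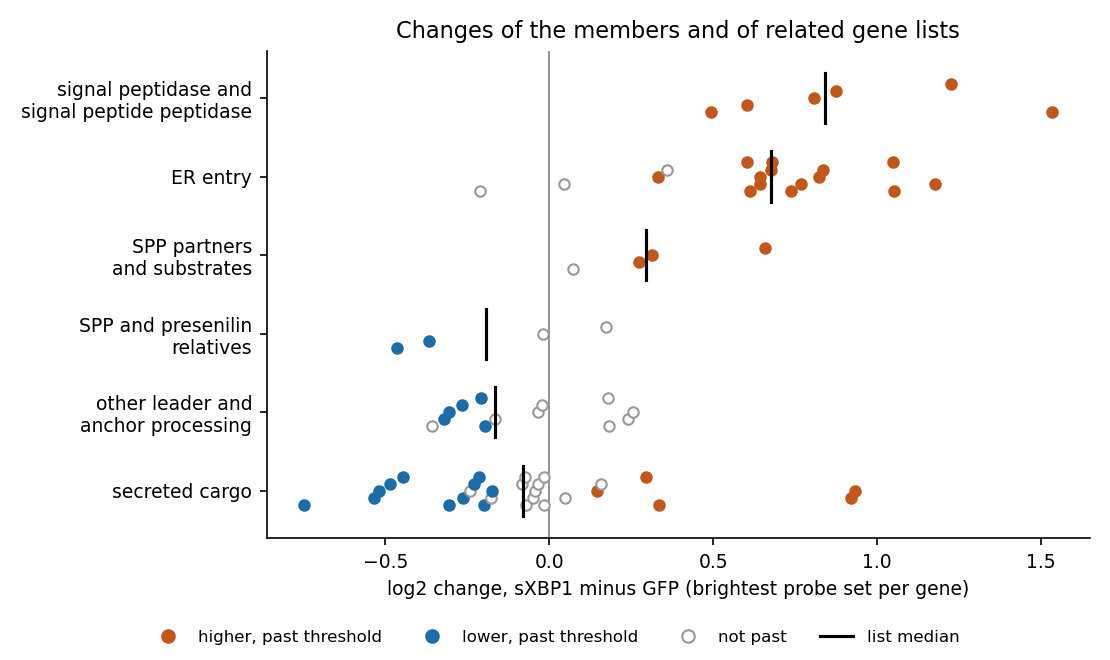
Log2 change (sXBP1 minus GFP) of each gene's brightest probe set for the 6 protease genes and the 5 related lists, with filled points past the threshold and black lines at list medians (SPP, signal peptide peptidase). The 6 members lie between 0.49 and 1.53, 14 of 17 ER entry genes are higher, and the medians of the SPP relatives, other processing genes and secreted cargo are -0.19, -0.16 and -0.08.

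Genes with the profile most like that of Sec11c were sought by the root mean square distance between the 8 array values, each centred on the gene's own GFP mean, among 6749 genes brighter than the median probe set. The 5 nearest were Il13ra1, an interleukin-13 receptor subunit, at 0.04, Tssc4 and Cyb561d2 at 0.10, Mrps12, a mitochondrial ribosomal protein, at 0.10, and Manf, a secreted ER stress protein, at 0.11 (log2 units). Nearest to Sec11a were Tceal8 and Atf6, an ER stress sensor, at 0.03 and Rnh1, the ribonuclease inhibitor, at 0.05. These distances reflect the size of the group difference as well as the spread within groups.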

How the data were processed

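The intensity values deposited by the authors are linear MAS5 signals per probe set, per the submitters' processing notes (software version and scaling target: not given in the sources used here); no array was left out. The authors' deposited comparison table, per its file header, adds a fold, a score and present or absent calls for 18394 probe sets. No build is named for the arrays. Gene symbols came from the platform annotation (20380 tested probe sets with 1 symbol, 691 with several and 1555 with none), and 64 control probe sets were left out. Hm13 was matched by its Entrez identifier. Signals were transformed as log2(signal + 16), quantile normalized and fitted with limma 3.58.1 in R 4.3.3 (lmFit; two-sided moderated tests from eBayes, trend on), and p-values were adjusted by Benjamini-Hochberg over 22626 probe sets; the fit was tested on simulated data. This scale understates changes of dim genes. Within-array differences were tested by exact permutation over the 8 arrays. Precision is limited by the 4 arrays per group. Named genes were all members, the 3 of each list with the smallest p, the nearest 5 to Sec11c and 3 to Sec11a, and adipocyte markers. Members, lists and tests were chosen with earlier results of these data known, and lists are described by counts and medians alone. Sec62, Sec61a2 and Xbp1 were named after their values were seen. Alternatives covered normalization, offset, a presence filter, variance trend, array weights, a replicate block, averaging of probe sets and leaving out each array. Promoter windows are from RefSeq (GRCm38.p6). Figures were drawn with matplotlib 3.10.9.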

Additional observations from a re-analysis of the deposited data

Results flagged for a closer look

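Of 28 sets of 4 arrays examined (14 probe sets in 2 groups), 3 held an array far from the other 3 relative to the range, where chance gives about 1 in 20. The bright Sec11a probe set lay at 11.05 on GFP array 4 against 11.09 to 11.10 on the other GFP arrays, on the normalized log2 scale, a gap far smaller than its change. Its deposited signal there, 2204, lay inside the range of the other GFP arrays, 2054 to 2344, so it stood apart after quantile normalization and not in the deposited values. The dim Spcs1 probe set lay at 6.13 on sXBP1 array 1 against 5.96 to 5.98 on the others. The second Spcs2 probe set lay at 11.52 on sXBP1 array 2 against 11.69 to 11.72.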

How the results depend on the processing

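All 6 genes stayed higher and past the threshold under each of 17 alternatives per gene (highest limma adjusted p = 0.00184, for Hm13 with the mean of all probe sets), and 8 to 10 of the 14 probe sets passed. The difference between Sec11c and Hm13 was reversed with the mean of all probe sets (0.63), by construction, since 4 dim Hm13 probe sets enter that mean. Leaving out each array gave 0.29 to 0.39 for Sec11c against Sec11a and -0.34 to -0.27 against Hm13, and these were not tested. The higher share of called probe sets, 46.9%, was 33.4% as deposited and 60.7% after median centring. After median centring, called genes numbered 2 among other processing genes and 10 among secreted cargo; without a variance trend they numbered 3 and 7, and 1 among relatives of signal peptide peptidase, as also with the presence filter and with the replicate block. Leaving out each array gave 0 to 2 calls for those relatives and 7 to 15 for secreted cargo (7, 9 and 10 without GFP array 3, GFP array 4 and sXBP1 array 3). The cause was not tested. Titles number the samples of both groups 1 to 4, but deviations of same-numbered arrays correlated at 0.13, 0.03, -0.08 and 0.10, so the numbers were not taken as pairs. With the replicate block, 5083 probe sets passed against 5543. In this balanced layout the block leaves each log2 change as it was (1.23 for Sec11c) and moves only its p, which for Sec11c was 6.3e-05 (limma, adjusted).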

Other observations

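Spcs3 has a pair of X-linked retrocopies in mouse, Arxes1 and Arxes2, known for a role in fat cell differentiation, and their probe sets moved the opposite way to Spcs3. They are not among the 6 genes, were looked up after the Spcs3 values were seen, and are annotated to both copies at once, so the copies cannot be told apart. The brighter of their 2 probe sets gave signals of 4148, 4536, 4151 and 4289 on GFP arrays 1 to 4 and of 2365, 2729, 1607 and 2077 on sXBP1 arrays 1 to 4, with no overlap. It fell by 0.96 ± 0.13 (limma adjusted p = 3.9e-04). The dimmer one lay at 75.7 to 93.9 in GFP and 39.5 to 54.6 in sXBP1 samples and fell by 0.55 ± 0.13 (adjusted p = 0.0116), called present on 2 of 4 sXBP1 arrays. Within arrays, the change of Spcs3 exceeded that of the brighter by 1.76 ± 0.20 and that of the dimmer by 1.35 ± 0.11 (two-sided exact permutation p = 0.0286 for each, the smallest that 4 against 4 allows). Spcs3 was wholly higher and both probe sets wholly lower in sXBP1 samples, so this p was fixed by those changes and adds nothing to them. Whether either probe set also detects Spcs3 was not tested.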
